A study of Homo sapiens with 9 samples.

Results

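The genes described here make, copy and remove methyl groups on DNA, or make the metabolite that the removing enzymes need. They are the DNA methyltransferases DNMT1, DNMT3A and DNMT3B, the maintenance cofactor UHRF1, the dioxygenases TET1, TET2 and TET3, and the isocitrate dehydrogenases IDH1 and IDH2. They were taken by symbol, and all 9 were found among the 26830 genes of the deposited files. All 9 passed the filter on low counts that left 13365 genes for testing. Polyadenylated RNA was sequenced from human NB4 cells, an established leukaemia line (labelled acute monocytic, and generally described as acute promyelocytic), after 48 h with the solvent DMSO alone, with FB23 or with FB23-2. Each group had 3 libraries, 9 in all, and differed in nothing else that the labels state. Both compounds are labelled as treatments that inhibit FTO, an RNA demethylase. The labels give no dose, and FB23 and FB23-2 are therefore set side by side at 48 h only, with dose unknown. The labels do not say whether the 3 libraries of a group came from separate cultures, so p-values measure the spread between these libraries, which may be technical.

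DNMT3A and DNMT3B add methyl groups to cytosines in CpG pairs, and DNMT1 copies the pattern to the new strand after replication, guided there by UHRF1, which binds hemimethylated sites. TET enzymes oxidise 5-methylcytosine as the start of its removal, and they use iron, oxygen and 2-oxoglutarate, the same cofactors as FTO. IDH1 in the cytosol and peroxisomes and IDH2 in mitochondria make 2-oxoglutarate from isocitrate. DNMT3A, TET2, IDH1 and IDH2 are among the genes recurrently mutated in acute myeloid leukaemia, where mutant IDH enzymes make 2-hydroxyglutarate, an inhibitor of TET enzymes.

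Library totals ran from 12360291 to 38410750 expected counts, the estimated reads per gene that the RSEM program gives. Markers were used to check the cell label. Of 8 listed for promyelocytes and myeloid cells 5 to 6 were detected in a group, where any count above 0 was taken as detection. A mean above 1 TPM was reached by 2 of them in DMSO, 2 with FB23 and 3 with FB23-2. MPO and CTSG, which define promyelocytes, had 0 counts in every library (at most 0.0595 CPM over the DMSO libraries, taking 3 counts as the limit). The 8 genes summed to 49.2 to 50.0 TPM in DMSO, 41.0 to 42.9 with FB23 and 48.1 to 51.1 with FB23-2. Most of this sum was CD33, with means of 44.0, 38.8 and 44.4 TPM in the same order. ITGAM followed, with means of 4.45, 2.54 and 3.63 TPM. The 8 erythroid markers, all detected in every group, summed to 20548 to 21619 TPM in DMSO, 23316 to 25215 with FB23 and 3808 to 4353 with FB23-2. The 6 lymphoid markers (4 to 5 detected) summed to 4.87 to 6.86 TPM, 4.15 to 5.17 TPM and 30.6 to 35.4 TPM in the same order. The 6 epithelial and fibroblast markers (5 to 6 detected) summed to 676 to 684, 727 to 751 and 2895 to 3087 TPM. Means with FB23-2 were higher than in DMSO for KRT8 (1372.5 against 227 TPM), KRT18 (973 against 288) and KRT19 (621 against 89.4). COL1A1 was also higher (6.56 against 0.913 TPM). EPCAM, of the same list, went the other way (25.5 against 73.5 TPM). COL1A2 had 1 count over the DMSO libraries and 0 over those of FB23-2. The absence of MPO and CTSG and the high erythroid sum thus go against a promyelocytic identity, while CD33 and ITGAM, of the same myeloid list, were present. The cells are called NB4 by their label. The erythroid, lymphoid and epithelial sums moved with FB23-2 alongside every result below, and their part in those results was not tested. In bulk RNA, fewer cells of a type and less RNA per cell cannot be told apart.

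In solvent-treated cells the maintenance pair DNMT1 and UHRF1 and the de novo enzyme DNMT3B were abundant. Among the genes described here the IDH genes were intermediate, and DNMT3A and the TET genes were lowest. Levels between genes are compared in TPM (a unit scaled for transcript length and library total). DNMT1 stood at 128 ± 0.757 TPM (SD, n = 3), UHRF1 at 107 ± 3.43 TPM and DNMT3B at 72.3 ± 1.24 TPM. IDH1 stood at 37.6 ± 1.85 TPM and IDH2 at 33.8 ± 2.26 TPM. TET3 was at 12.9 ± 0.0802 TPM, DNMT3A at 11.9 ± 0.640 TPM, TET2 at 6.10 ± 0.313 TPM and TET1 at 5.50 ± 0.280 TPM. DNMT1 lay above 91.8% of tested genes, IDH1 above 74.0%, TET3 above 49.7%, DNMT3A above 47.9% and TET1 above 33.3%. In DMSO the neighbours in this order that overlapped between libraries were IDH1 with IDH2 and TET2 with TET1. With FB23 the libraries of IDH1 and IDH2, of DNMT3A and TET3 and of TET2 and TET1 overlapped. With FB23-2 DNMT3B (107 ± 3.87 TPM) stood above UHRF1 (98.3 ± 2.48 TPM) with no overlap, the reverse of their order in DMSO, and only IDH1 and IDH2 overlapped.

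**Figure D1:**
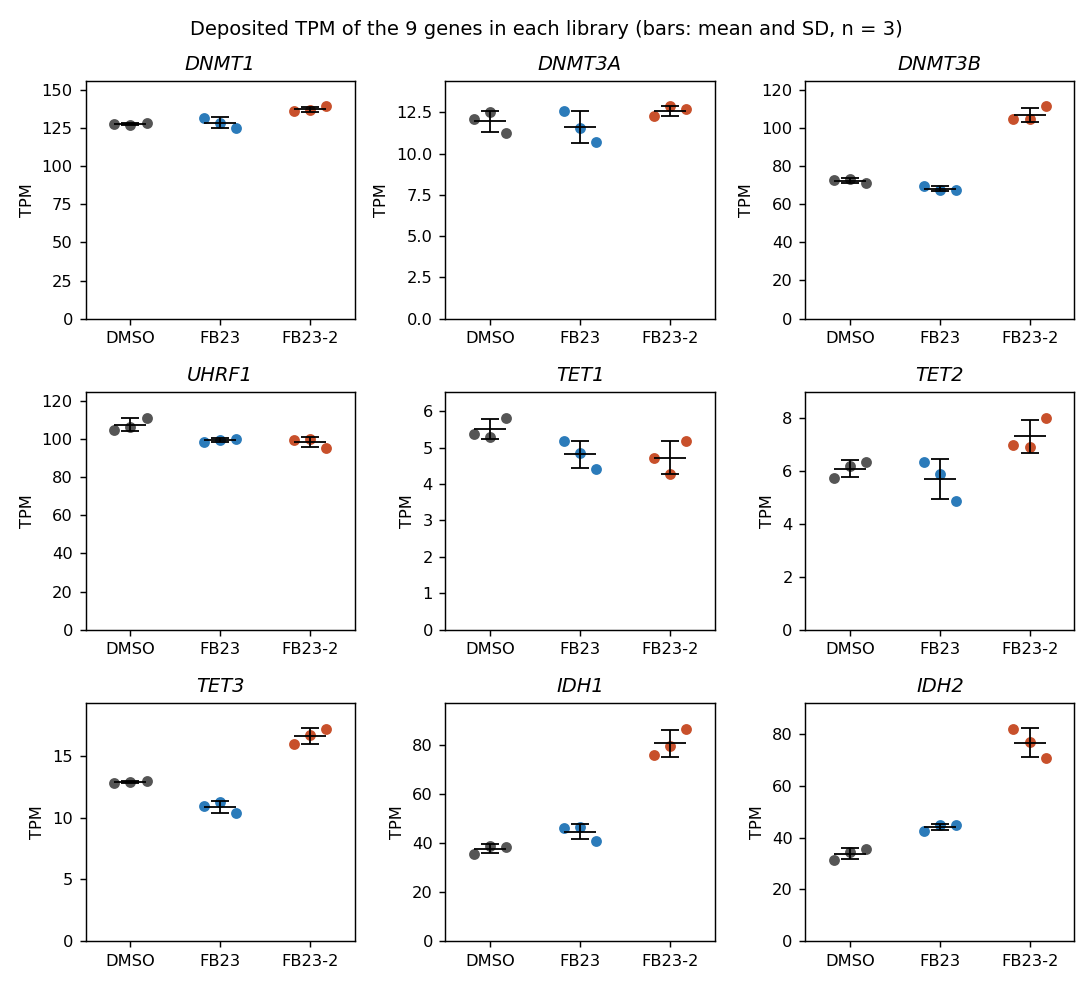
Deposited TPM of the 9 genes (vertical axes, each from 0) in the 3 libraries each of DMSO, FB23 and FB23-2; points are libraries and bars the mean and SD. IDH1 and IDH2 are highest in the FB23-2 libraries, between 70.8 and 86.8 TPM against 31.2 to 38.8 TPM in DMSO, and DNMT3B is above 104 TPM in every FB23-2 library.

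Against DMSO, 4 of the 9 genes passed the test with FB23 and 8 with FB23-2, and both compounds raised IDH1 and IDH2. With FB23, IDH1 and IDH2 rose and TET1 and TET3 fell, where 23.5% of all tested genes were called (edgeR's quasi-likelihood test, Benjamini-Hochberg adjusted p under 0.05; 12.3% higher and 11.2% lower). With FB23-2, DNMT3B, TET3, IDH1 and IDH2 were called higher and DNMT1, DNMT3A, UHRF1 and TET1 lower, where 82.6% of all tested genes were called (41.3% higher and 41.3% lower). Between the compounds 7 of the 9 differed, against 81.5% of all tested genes (40.4% higher and 41.1% lower with FB23-2). Libraries of the groups did not overlap in CPM for 6, 8 and 7 of the 9 genes in these 3 comparisons, against 37.9%, 84.2% and 81.2% of all tested genes, and in TPM for 6, 8 and 6, against 36.4%, 83.8% and 80.7%. The member shares are therefore near the background in both comparisons that involve FB23-2. The members' median absolute log2 fold change was 0.13 with FB23, where that of all tested genes was 0.14, and 0.31 with FB23-2, where that of all tested genes was 0.73.

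The direction of some small changes with FB23-2 against DMSO differed between ways of processing. DNMT1 and DNMT3A changed sign under other library scalings. TET2 and TET3 did so with GC and length trends removed, and TET2 also with no filter on low counts and in some runs that left out a library. TMM, the scaling used here, gave the FB23-2 libraries factors of 1.05 to 1.08 and the others 0.954 to 0.988. Of all counts, 6.95% to 7.32% fell on the top 10 genes with FB23-2 and 5.54% to 5.83% in the other libraries. For FB23-2 against DMSO, the median log2 fold change of all tested genes moved up by 0.17 with upper-quartile factors, by 0.15 with library totals and by 0.24 with log2(TPM + 0.1), and on that TPM scale 61.3% of called genes were higher instead of 50.0%. For FB23-2 against FB23 that share was 61.5% instead of 49.5%, and for FB23 against DMSO, 52.4% as processed here, it was 42.2% with GC and length trends removed, 61.7% with log2(TPM + 0.1), 61.6% with library totals and 66.1% with no filter on low counts. The members whose call and direction with FB23-2 against DMSO held in all 21 alternative ways of processing were IDH1, IDH2, DNMT3B and UHRF1. With FB23 against DMSO they were IDH1, IDH2 and TET3.

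**Figure D2:**
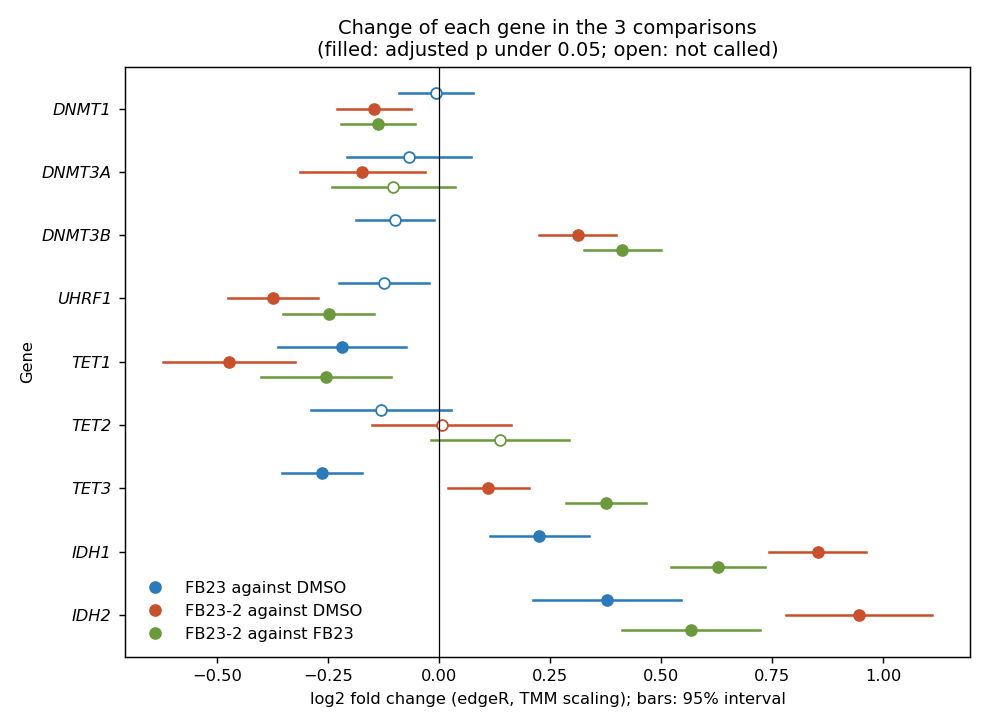
Log2 fold change (horizontal axis) with its 95% interval for each of the 9 genes, for each compound against DMSO and for FB23-2 against FB23, with TMM scaling; filled points have an adjusted p under 0.05. IDH1 and IDH2 lie to the right of 0 in all 3 comparisons, and DNMT3B lies right of 0 in both comparisons with FB23-2, while DNMT1, DNMT3A, TET2 and TET3 change side under other scalings or a GC correction in at least 1 comparison.

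The maintenance genes DNMT1 and UHRF1 did not pass the test with FB23, and with FB23-2 UHRF1 fell by a modest amount. UHRF1 stood at 316, 314 and 327 CPM (counts scaled to library size with TMM factors) in DMSO replicates 1 to 3, at 284, 289 and 303 CPM with FB23 and at 256, 254 and 228 CPM with FB23-2. All 3 FB23-2 libraries lay under all FB23 libraries, and these under all DMSO libraries. UHRF1 fell 1.30-fold with FB23-2 (log2 -0.37 ± 0.05 SE, edgeR adjusted p = 1.34e-06). The call held in all 21 alternatives, but the size of the fall varied, from log2 -0.60 to -0.13. With FB23 its log2 fold change was -0.12 ± 0.05 (edgeR adjusted p = 0.0707, with an unadjusted p of 0.0188). It passed there with the GC and length trends removed (-0.14, adjusted p = 0.00304), in DESeq2 (-0.14, adjusted p = 0.0444), without FB23 replicate 3 (-0.15, adjusted p = 0.0366) and without FB23-2 replicate 3 (-0.12, adjusted p = 0.0310). Between the compounds UHRF1 was lower with FB23-2 by log2 0.25 ± 0.05 (edgeR adjusted p = 0.000132), a call lost with upper-quartile factors (-0.08, adjusted p = 0.109) and on the TPM scale (-0.02, limma adjusted p = 0.717).

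DNMT1 stood at 499.8, 485 and 489.6 CPM in DMSO, 493, 484 and 489 CPM with FB23 and 453, 448 and 431 CPM with FB23-2. The FB23 libraries overlapped those of DMSO, and the FB23-2 libraries lay under both. DNMT1 had a log2 fold change of -0.0083 ± 0.04 SE with FB23 (edgeR adjusted p = 0.906, 95% interval -0.092 to 0.075). With FB23-2 it was called lower, at -0.15 ± 0.04 (edgeR adjusted p = 0.00250), but it was 0.0016 with library totals (adjusted p = 0.969), 0.03 with upper-quartile factors (adjusted p = 0.536) and 0.10 on the TPM scale, there called higher (limma adjusted p = 0.0156). With GC and length trends removed it was -0.48 (edgeR adjusted p = 3.46e-12). In TPM the FB23-2 libraries held 136, 137 and 139 TPM, above the DMSO libraries at 128, 127 and 129 TPM. No direction of DNMT1 with FB23-2 therefore held across scales. Between the compounds it was lower with FB23-2 by 0.14 ± 0.04 (edgeR adjusted p = 0.00385), and on the TPM scale it was higher (0.10, limma adjusted p = 0.0227).

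Because UHRF1 and DNMT1 are known as genes of proliferating cells, the letters of promoters of theirs are shown beside those of DNMT3B. Whether these letters bear on any change of the 9 genes was not tested. The sequences are RefSeq's on GRCh38.p14, from 250 bases before an annotated start to 30 bases after it, 5′ to 3′ on the gene's strand, and capitals mark matches to the E2F strings TTTCCCGC, TTTGGCGC, TTTCGCGC or TTTGCCGC on either strand.
UHRF1, chr19:4909894-4910173, plus strand: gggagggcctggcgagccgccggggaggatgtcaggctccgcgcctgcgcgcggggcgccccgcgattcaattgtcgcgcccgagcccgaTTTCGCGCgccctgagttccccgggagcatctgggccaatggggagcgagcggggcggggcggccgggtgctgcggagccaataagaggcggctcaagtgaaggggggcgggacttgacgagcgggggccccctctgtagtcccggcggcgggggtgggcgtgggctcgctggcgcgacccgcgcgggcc
UHRF1, another start, chr19:4909251-4909530, plus strand: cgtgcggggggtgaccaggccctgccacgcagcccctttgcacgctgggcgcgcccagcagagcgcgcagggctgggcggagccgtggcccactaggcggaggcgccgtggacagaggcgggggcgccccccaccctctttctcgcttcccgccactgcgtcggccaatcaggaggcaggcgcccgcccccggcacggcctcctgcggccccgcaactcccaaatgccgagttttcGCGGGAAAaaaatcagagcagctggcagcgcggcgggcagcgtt
DNMT1, chr19:10194924-10195203, minus strand: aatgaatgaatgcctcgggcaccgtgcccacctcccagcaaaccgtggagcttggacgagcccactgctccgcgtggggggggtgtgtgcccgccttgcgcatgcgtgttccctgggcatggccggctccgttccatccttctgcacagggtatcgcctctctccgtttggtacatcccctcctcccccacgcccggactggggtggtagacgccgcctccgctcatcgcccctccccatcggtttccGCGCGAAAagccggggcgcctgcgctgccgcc
DNMT3B, chr20:32779602-32779881, plus strand: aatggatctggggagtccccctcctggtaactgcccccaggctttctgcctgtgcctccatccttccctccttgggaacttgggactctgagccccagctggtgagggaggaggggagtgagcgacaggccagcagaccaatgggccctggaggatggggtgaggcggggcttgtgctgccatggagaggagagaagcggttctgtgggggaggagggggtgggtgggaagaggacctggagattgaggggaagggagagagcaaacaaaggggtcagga
The strings were found in 3 of the 21 annotated promoters of the 9 genes, those of UHRF1 and DNMT1 shown here, and in 3.32% of 35116 promoters of 300 bases. Another UHRF1 window, starting at 4910117, held none of them. Neither did any promoter of TET1, which was called lower with FB23-2. In the UHRF1 promoters the match began 160 and 14 bases before the start, and in DNMT1 2 bases before it, running across it. None of these 3 matches overlapped the other motifs searched on both strands, CACGTG (found in 7.26% of all promoters), CCAAT (34.6%) and GGGCGG (44.95%), which 4, 7 and 13 of the 21 promoters held. Each window shown lies inside the span that GENCODE release 29 gives its gene, not at its outermost start. These spans start at 4903080 for UHRF1, at 32762385 for DNMT3B and, on the minus strand, at 10231286 for DNMT1. No window at the outermost start of DNMT3B was searched. The absence of these letters from the DNMT3B window says only that they are not in it. CpG pairs numbered 3 in the 300 bases of that internal DNMT3B window and 30 in that of DNMT1, where all promoters had a median of 14.

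A list of 16 S-phase genes, which copy DNA and supply its building blocks, moved both ways beside them. With FB23-2, 11 of the 16 were lower and 5 higher, where 41.3% of all tested genes were lower and 41.3% higher. The median log2 fold change was -0.36, where all tested genes had 0.01. Over the 21 alternatives 8 to 11 were lower and 4 to 5 higher. MCM5, a subunit of the replicative helicase, fell by 1.34 ± 0.05 (SE) and MCM2 by 1.18 ± 0.06, while TK1, which salvages thymidine, rose by 1.09 ± 0.06 and CDT1, a licensing factor, by 0.79 ± 0.06. With FB23, 5 were lower and 4 higher, where 11.2% of all tested genes were lower and 12.3% higher. MCM5 was down by 0.35 ± 0.05 and MCM2 by 0.32 ± 0.06. RRM2, a subunit of ribonucleotide reductase, was up by 0.47 ± 0.04 and TK1 by 0.33 ± 0.06. Whether these genes bear on UHRF1 or DNMT1 was not tested.

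The de novo methyltransferase DNMT3B rose with FB23-2 and did not pass the test with FB23. It stood at 201, 197 and 190.4 CPM in DMSO, 183, 178 and 187 CPM with FB23 and 246, 241 and 243 CPM with FB23-2. The 3 groups did not overlap, with FB23 lowest and FB23-2 highest. With FB23-2 the rise was 1.24-fold (log2 0.31 ± 0.04 SE, edgeR adjusted p = 1.85e-06), and it ran from 0.14 with GC and length trends removed to 0.56 on the TPM scale. With FB23 the log2 fold change was -0.10 ± 0.04 (edgeR adjusted p = 0.0918), and it passed as lower with GC and length trends removed (-0.12, adjusted p = 0.00890). The compounds differed by 0.41 ± 0.04 (edgeR adjusted p = 5.04e-08), a call kept in all 21 alternatives.

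DNMT3A, the other de novo enzyme, was lower with FB23-2 only on some scales. It stood at 37.3, 37.8 and 33.9 CPM in DMSO, 37.2, 34.3 and 33.2 CPM with FB23 and 32.2, 33.3 and 31.0 CPM with FB23-2. The FB23-2 libraries lay under those of DMSO by a small margin. The log2 fold change with FB23-2 was -0.17 ± 0.07 SE (edgeR adjusted p = 0.0242), with adjusted p between 1.08e-05 and 0.988 over the 21 alternatives. The call was lost without DMSO replicate 1 (-0.16, adjusted p = 0.0629) or 2 (-0.15, 0.0793), without FB23-2 replicate 1 (-0.15, 0.0884) or 3 (-0.15, 0.0691), with upper-quartile factors (-0.0011, adjusted p = 0.988), with library totals (-0.03, 0.738), in DESeq2 (-0.15, 0.0708) and with a filter of 1 CPM (-0.14, 0.0565), and on the TPM scale the value was 0.08 (limma adjusted p = 0.363). With FB23 its log2 fold change was -0.069 ± 0.07 (edgeR adjusted p = 0.491, 95% interval -0.21 to 0.07). The compounds differed by -0.10 ± 0.07 (edgeR adjusted p = 0.151, 95% interval -0.24 to 0.034), which was called lower with FB23-2 with GC and length trends removed (-0.29, adjusted p = 0.000168) and with no filter on low counts (-0.16, adjusted p = 0.0409), and was 0.12 on the TPM scale (limma adjusted p = 0.170). DNMT3L, the partner of the de novo enzymes that has no catalysis of its own, was at 0 counts over the DMSO libraries and over the FB23 libraries (at most 0.0595 and 0.0375 CPM), and had 8 counts over those of FB23-2, too few to be tested.

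**Figure D3:**
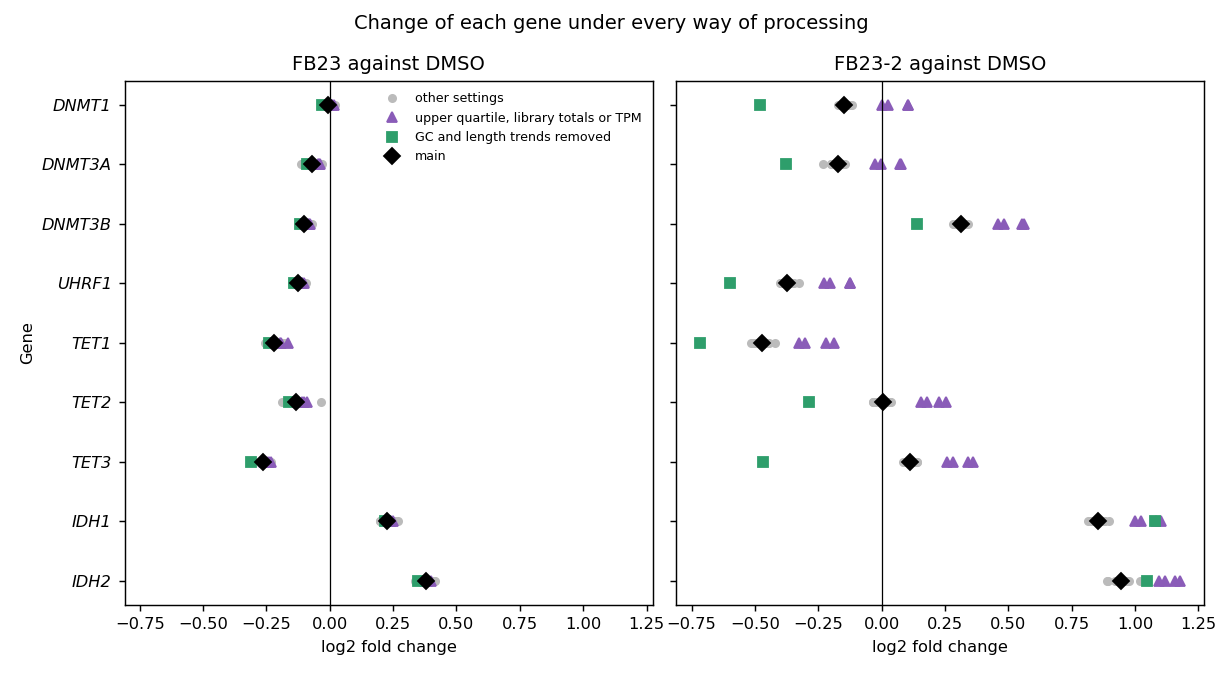
Log2 fold change of each of the 9 genes (horizontal axis) as processed for the text and under the 21 alternatives, for FB23 against DMSO and FB23-2 against DMSO; diamonds are the values in the text, triangles upper-quartile, library-total or TPM scaling, squares the removal of GC and length trends. With FB23-2 the points of DNMT1, DNMT3A, TET2 and TET3 lie on both sides of 0, and with FB23 those of DNMT1, which stay within -0.03 and 0.02.

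Ratios of 2 genes in the same library do not change with library scaling, and they were added after the data were seen. DNMT3B per DNMT1, in TPM, was 0.569, 0.576 and 0.551 in the DMSO libraries, 0.527, 0.522 and 0.542 with FB23 and 0.768, 0.764 and 0.799 with FB23-2. All 3 FB23-2 libraries were above the other 6. DNMT3B per UHRF1 was 0.697, 0.689 and 0.638 in DMSO, 0.708, 0.676 and 0.676 with FB23 and 1.05, 1.04 and 1.17 with FB23-2, above 1 in every FB23-2 library and under 1 in every other. For FB23-2 against DMSO the log2 fold changes of DNMT3B and DNMT1 differed by 0.46, by 0.44 to 0.47 over the alternatives without GC correction, and by 0.62 with GC and length trends removed. The unequal change of DNMT3B and DNMT1 had 1 direction in each alternative run. Alternatives that only rescale libraries could hardly have changed it, since the scaling cancels between the 2 genes.

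**Figure D4:**
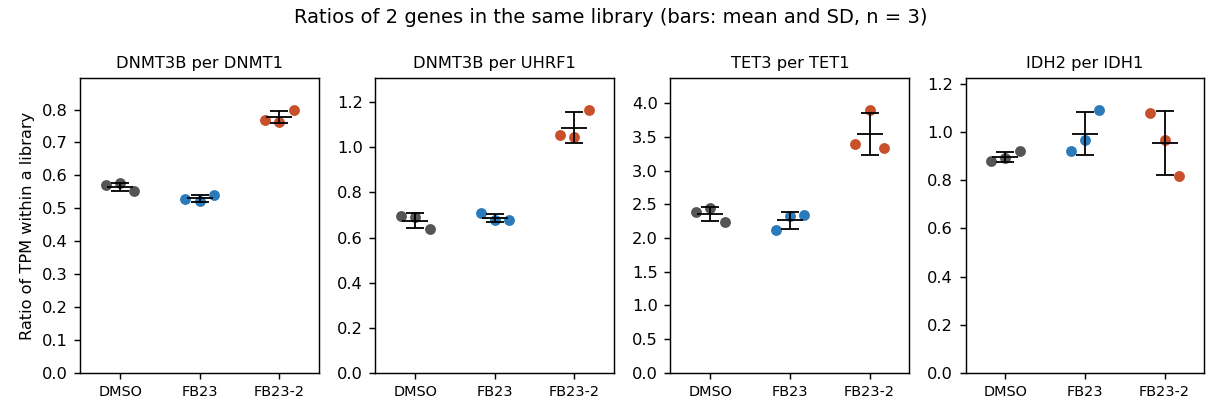
Ratio of the TPM of 2 genes within a library (vertical axes, from 0) for DNMT3B per DNMT1, DNMT3B per UHRF1, TET3 per TET1 and IDH2 per IDH1; points are libraries and bars the mean and SD of 3. The first 3 ratios are higher in all FB23-2 libraries than in any other, and IDH2 per IDH1 overlaps between the groups.

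Among the TET genes, TET3 fell with FB23, TET1 was lower with both compounds, and TET2 passed with neither. TET3 stood at 109, 107 and 107 CPM in DMSO, 89.1, 91.8 and 87.9 CPM with FB23 and 115, 118 and 115 CPM with FB23-2. The groups did not overlap, with FB23 lowest and FB23-2 highest. With FB23 TET3 fell 1.20-fold (log2 -0.26 ± 0.04 SE, edgeR adjusted p = 0.000358; between -0.31 and -0.23 over the 21 alternatives). With FB23-2 it was called higher by 0.11 ± 0.04 (edgeR adjusted p = 0.0247), but it was called lower with GC and length trends removed (-0.47, adjusted p = 2.11e-10), and the call was lost without DMSO replicate 1 (0.11, 0.0670), 2 (0.10, 0.0985) or 3 (0.10, 0.0847), without FB23-2 replicate 2 (0.09, 0.0893) and with no filter on low counts (0.08, 0.182). Between the compounds TET3 was higher with FB23-2 by 0.37 ± 0.04 (edgeR adjusted p = 2.82e-07), and lower with GC and length trends removed (-0.16, adjusted p = 0.000512).

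TET1 stood at 38.1, 36.6 and 40.2 CPM in DMSO, 35.1, 33.0 and 31.3 CPM with FB23 and 28.4, 25.4 and 28.9 CPM with FB23-2. Every FB23 library lay under every DMSO library and every FB23-2 library under both. With FB23-2 TET1 fell 1.39-fold (log2 -0.47 ± 0.07 SE, edgeR adjusted p = 7.16e-06), and missed the threshold on the TPM scale (-0.22, limma adjusted p = 0.0698). With FB23 it fell by 0.22 ± 0.07 (edgeR adjusted p = 0.0285), a call lost without DMSO replicate 1 (-0.22, adjusted p = 0.0745) or 3 (-0.18, 0.122), without FB23 replicate 2 (-0.22, 0.0810) or 3 (-0.17, 0.0986), with library totals (-0.20, 0.0603), with no filter on low counts (-0.18, 0.0685) and on the TPM scale (-0.19, limma adjusted p = 0.236). Between the compounds the difference was -0.25 ± 0.07 (edgeR adjusted p = 0.00276), lost with upper-quartile factors (-0.09, 0.252), library totals (-0.13, 0.111) and TPM (-0.03, limma adjusted p = 0.812). TET3 per TET1, in TPM, was 2.39, 2.44 and 2.23 in DMSO, 2.12, 2.33 and 2.35 with FB23 and 3.39, 3.90 and 3.33 with FB23-2. The difference of their log2 fold changes with FB23-2 was 0.58, between 0.52 and 0.62 without GC correction and 0.25 with GC and length trends removed.

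TET2 stood at 41.6, 43.7 and 44.8 CPM in DMSO, 43.9, 41.1 and 35.1 CPM with FB23 and 42.9, 41.9 and 45.9 CPM with FB23-2, with overlap between the groups. In TPM the FB23-2 libraries, from 6.92 to 8.02 TPM, lay above all DMSO libraries, from 5.75 to 6.36 TPM. TET2 had a log2 fold change of -0.13 ± 0.07 SE with FB23 (edgeR adjusted p = 0.223, 95% interval -0.29 to 0.026) and 0.0049 ± 0.07 with FB23-2 (adjusted p = 0.954, 95% interval -0.15 to 0.16). With FB23-2 it was called higher with upper-quartile factors (0.18, adjusted p = 0.0373) and on the log2(TPM + 1) scale (0.23, limma adjusted p = 0.0482), and lower with GC and length trends removed (-0.29, adjusted p = 5.57e-05). With FB23 it was called lower under that GC correction (-0.16, adjusted p = 0.0256). Between the compounds the difference was 0.14 ± 0.07 (edgeR adjusted p = 0.0950), and it passed in 8 of 21 alternatives, higher with FB23-2 in 7 of them and lower with GC and length trends removed (-0.13, adjusted p = 0.0315). Without FB23 replicate 1 it passed at 0.20 (adjusted p = 0.0165). The antisense gene TET2-AS1, which overlaps TET2, had 0 counts in every library.

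IDH1 and IDH2 rose with both compounds and more with FB23-2. IDH1 stood at 54.9, 58.7 and 58.2 CPM in DMSO, 68.0, 69.4 and 63.9 CPM with FB23 and 100.3, 104 and 107 CPM with FB23-2. IDH2 stood at 28.2, 30.5 and 31.3 CPM in DMSO, 36.2, 39.1 and 40.8 CPM with FB23 and 63.2, 58.5 and 50.9 CPM with FB23-2. For both genes every FB23 library lay above every DMSO library, and every FB23-2 library above both. IDH1 rose 1.17-fold with FB23 (log2 0.23 ± 0.05 SE, edgeR adjusted p = 0.00523) and 1.81-fold with FB23-2 (0.85 ± 0.05, adjusted p = 4.64e-11). IDH2 rose 1.30-fold with FB23 (log2 0.38 ± 0.08, edgeR adjusted p = 0.00247) and 1.93-fold with FB23-2 (0.95 ± 0.08, adjusted p = 3.38e-09). The compounds differed by 0.63 ± 0.05 for IDH1 (edgeR adjusted p = 2.38e-09, 95% interval 0.52 to 0.73) and by 0.57 ± 0.07 for IDH2 (adjusted p = 1.49e-06, 95% interval 0.41 to 0.72). All 6 of these calls held in all 21 alternatives, with log2 values between 0.81 and 1.10 for IDH1 and between 0.89 and 1.18 for IDH2 with FB23-2. The antisense gene IDH1-AS1, which overlaps IDH1, had 12, 26 and 28 counts over the DMSO, FB23 and FB23-2 libraries, where IDH1 had 2891, 5323 and 6356.

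The other enzymes around 2-oxoglutarate in the list mostly moved the opposite way with FB23-2. Of 24 tested, 18 were called lower and 2 higher, where 41.3% of all tested genes were called lower and 41.3% higher. Their median log2 fold change was -0.94, where all tested genes had 0.01. Over the 21 alternatives 15 to 19 were lower and 1 to 6 higher. SDHB, a subunit of succinate dehydrogenase, fell by 1.65 ± 0.06 (SE), from 158 to 50.0 CPM, and IDH3B, a subunit of the NAD-dependent isocitrate dehydrogenase of the citric acid cycle, by 1.62 ± 0.05, from 238 to 77.2 CPM. The higher pair was OGDH, the 2-oxoglutarate dehydrogenase that consumes the metabolite, at 0.47 ± 0.05, and D2HGDH, which clears D-2-hydroxyglutarate, at 0.22 ± 0.07. With FB23, 4 were higher and 1 lower, where 12.3% of all tested genes were higher and 11.2% lower. The median was 0.0060, where all tested genes had 0.0040, and over the alternatives 1 to 5 were higher and 0 to 4 lower. OGDHL, a relative of OGDH, rose by 0.60 ± 0.21 (edgeR adjusted p = 0.0493) and OGDH by 0.32 ± 0.05, and the gene called lower was SDHB, at -0.21 ± 0.06.

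**Figure D5:**
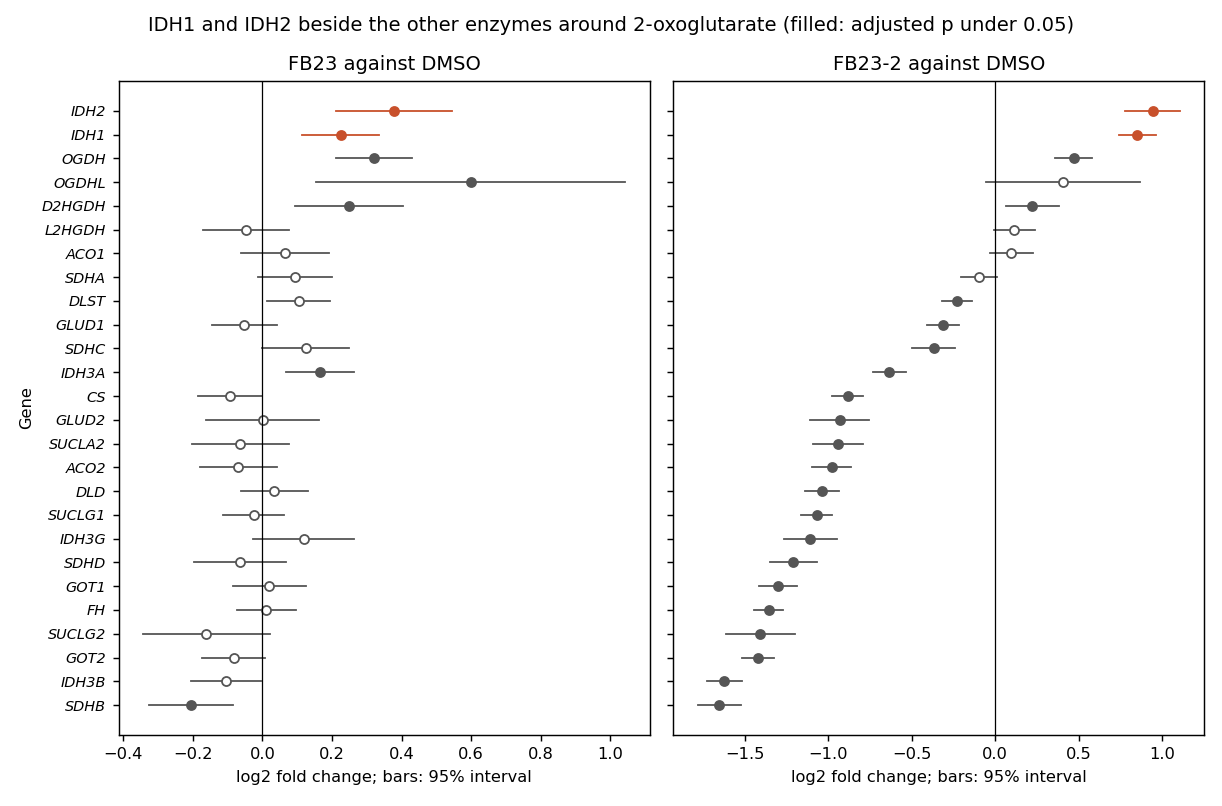
Log2 fold change with its 95% interval (horizontal axes, which differ in range) for IDH1 and IDH2, in orange, and the 24 other tested enzymes around 2-oxoglutarate, in grey, with FB23 and with FB23-2 against DMSO; filled points have an adjusted p under 0.05. With FB23-2, 18 of the 24 grey points are filled and left of 0, where 41.3% of all tested genes were called lower. IDH1 and IDH2 are right of 0.

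Genes that work beside the members were called in both directions with FB23-2, as were all tested genes (41.3% higher and 41.3% lower), so these counts show nothing particular to the lists. Of 8 tested partners of maintenance methylation, 5 were lower and 3 higher (median log2 fold change -0.47). ZBTB24, a zinc-finger factor needed for methylation of satellite repeats, fell by 1.49 ± 0.07 (SE), USP7, a deubiquitinase that binds DNMT1 and UHRF1, by 1.09 ± 0.04, while UHRF2, the paralog of UHRF1, rose by 0.49 ± 0.08 and HELLS, a chromatin remodeller, by 0.38 ± 0.08. Of 11 readers of methylated or unmethylated CpGs, 5 were higher and 5 lower (median 0.05), with ZBTB4 up by 1.05 ± 0.07, ZBTB38 up by 0.53 ± 0.07, ZBTB33 down by 0.62 ± 0.08 and CXXC1 down by 0.49 ± 0.06. Of 4 tested TET partners, VPRBP, a substrate receptor of a ubiquitin ligase, fell by 1.44 ± 0.06 and WT1, which recruits TET proteins, by 0.78 ± 0.08, and OGT, a glycosyltransferase bound by TET proteins, rose by 0.34 ± 0.06.

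Enzymes that finish the removal or supply the methyl group are given against the same background, 41.3% higher and 41.3% lower of all tested genes with FB23-2. Of 10 base excision genes, 6 were lower and 4 higher (median -0.53), with the ligase LIG3 down by 1.37 ± 0.06 (SE) and PARP1 down by 1.10 ± 0.04, and NEIL1, a glycosylase at few counts, up by 0.99 ± 0.33 and XRCC1, a scaffold, by 0.34 ± 0.07. TDG, the glycosylase that cuts out the oxidised bases, stood at -0.75 ± 0.05 and was called lower. Of 9 tested genes of the S-adenosylmethionine cycle, 6 were lower and 3 higher (median -0.27). MAT2A, which makes S-adenosylmethionine, fell by 1.34 ± 0.05, from 770.4 to 303 CPM, and MTRR, which keeps methionine synthase active, by 1.32 ± 0.06, while AHCYL2 rose by 0.45 ± 0.08.

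With FB23, 12.3% of all tested genes were called higher and 11.2% lower. Fewer genes passed in each of these lists than with FB23-2, as was so over all tested genes. The maintenance partners had 1 of 8 higher and 2 lower, CDCA7L at 0.19 ± 0.06 (SE), ZBTB24 at -0.23 ± 0.07 and USP7 at -0.18 ± 0.04. The CpG readers had 1 of 11 higher, MBD3 at 0.19 ± 0.06, and 2 lower, ZBTB38 at -0.24 ± 0.08 and KDM2A at -0.13 ± 0.04, where 7 were lower with GC and length trends removed and 0 with library totals, on the TPM scale or without DMSO replicate 2 or 3 or FB23 replicate 2. The base excision genes had 3 of 10 higher, led by NEIL3 at 0.40 ± 0.07 and XRCC1 at 0.22 ± 0.07, and 1 lower, LIG3 at -0.15 ± 0.05. The S-adenosylmethionine genes had 1 of 9 higher, AHCYL1 at 0.21 ± 0.05, and 3 lower, among them ADK at -0.34 ± 0.09. Of 4 TET partners tested, 0 were called at an adjusted p under 0.05 by edgeR, by limma or by DESeq2, and 0 had an unadjusted p under 0.05 in edgeR.

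Among germline genes that promoter methylation often keeps silent, only those with enough counts could be tested, and their calls with FB23-2 were on the lower side. Of 16 listed, 6 had enough counts to be tested, so genes that are silent in these cells are left out of the calls. Among those left out, SYCP3 had 3 counts over the DMSO libraries and 19 over those of FB23-2, and PIWIL2 0 and 15. The others had at most 5 over the FB23-2 libraries. With FB23-2 0 were higher and 4 lower by edgeR, where 41.3% of all tested genes were higher and 41.3% lower. The count of higher genes was also 0 at an unadjusted p under 0.05 and in DESeq2. It was 1 on the TPM scale, and 2 of 12 with no filter on low counts. MAGEA3 fell by 1.25 ± 0.05 (SE), from 258 to 109 CPM, CTAG2 by 1.74 ± 0.07, CTAG1B by 2.65 ± 0.21 and GTSF1 by 0.78 ± 0.05. In DMSO these 4 had means of 254, 239, 16.8 and 482 TPM in the same order, so they were not silent in solvent-treated cells. MAGEA3, CTAG1B and CTAG2 belong to families of near-identical copies among which reads can be split, so their values are uncertain. With FB23, MAGEB2 was called higher at 0.24 ± 0.08 (edgeR adjusted p = 0.0436) and MAGEA3 lower at -0.15 ± 0.05 (adjusted p = 0.0216). Of 5 tested cytosine deaminases, 2 were higher and 2 lower with FB23-2, against 41.3% higher and 41.3% lower of all tested genes. These were APOBEC3F at 1.12 ± 0.14, APOBEC3G at 0.86 ± 0.14, APOBEC3C at -1.19 ± 0.06 and APOBEC3B at -0.46 ± 0.06. With FB23 1 was higher, APOBEC3F at 0.43 ± 0.15, against 12.3% of all tested genes.

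FTO, the named target of both compounds, was measured at 13.4, 14.1 and 12.8 TPM in DMSO, 13.1, 13.0 and 11.9 TPM with FB23 and 12.8, 11.8 and 13.1 TPM with FB23-2. Its log2 fold change was -0.10 with FB23 (edgeR adjusted p = 0.253) and -0.35 with FB23-2 (adjusted p = 7.33e-05), the latter lost on the TPM scale (-0.10, limma adjusted p = 0.222). A transcript level does not read the activity of the enzyme. Likeness of pattern was measured as Pearson's r of log2 CPM over the 9 libraries, which fall into 3 groups, against the 11630 genes whose mean log2 CPM reached 1. The 3 closest to DNMT3B were ABL1 (0.998), MICALL2 (0.996) and LDHA (0.994), and to UHRF1 CAPN1 (0.996), UNC13D (0.991) and IGHMBP2 (0.991). For DNMT1 they were ADO (0.995), GGA2 and KLF15 (0.989), and for DNMT3A GEMIN8 (0.979), IQCC (0.918) and ATG7 (0.916). For TET1 they were TBK1 (0.979), VAPB (0.978) and POLA1 (0.977), for TET2 PHIP (0.933), PRPF4B (0.930) and CENPC (0.926), and for TET3 MDC1 (0.975), NBEAL2 (0.971) and SSH2 (0.968). IDH1 had 141 genes above 0.99, led by GOLGB1 (0.998), ZFYVE16 (0.998) and SPPL2A (0.998), and IDH2 had 1, WDR13 (0.991), followed by PYGB and TP53I13 just under it.

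In GENCODE release 29 on GRCh38, the members lie on 6 chromosomes. DNMT3A spans 25227855 to 25342590, TET3 73986404 to 74108176 and IDH1 208236227 to 208266074 on chromosome 2, and DNMT1 spans 10133345 to 10231286 and UHRF1 4903080 to 4962154 on chromosome 19. DNMT3B lies on chromosome 20 at 32762385 to 32809356, TET1 on chromosome 10 at 68560656 to 68694482, TET2 on chromosome 4 at 105145875 to 105279816 and IDH2 on chromosome 15 at 90083045 to 90102504. The deposited tables give 1 RefSeq transcript for each gene, while GENCODE annotates 28 for DNMT1, 15 for DNMT3A, 9 for TET2 and 6 for DNMT3B, so exons outside that transcript and any change of isoform were not measured.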

How the data were processed

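RNA from 9 libraries was poly(A)-selected and prepared with a directional kit, per the labels' protocols. The deposited expected counts are estimated reads per gene by RSEM 1.2.31 on GRCh38, as the submitters' processing notes list them. The deposited TPM values are read by the usual definition of that unit, counts divided by effective length and rescaled to a fixed sum per library. The deposited lengths are taken as bases. Aligner, strand setting and filters: not given in the sources used here.

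After rounding, expected counts were fitted with edgeR 4.0.16 in R 4.3.3 over all 9 libraries, with filterByExpr (minimum count 10, minimum total 15), TMM factors and 1 mean per group. Quasi-likelihood F tests were two-sided, and p-values were adjusted by Benjamini and Hochberg over all 13365 tested genes, with calls under 0.05. The common biological coefficient of variation was 5.12%. The standard error is the log2 fold change divided by the root of the F statistic. A limit of 3 counts stands for 0, for counting error only. Limma 3.58.1 and DESeq2 1.42.0 served as alternatives. GC content, from GENCODE transcripts, was known for 94.3% of tested genes and all 9 members. A planned description of isoform mix was void, since all 26830 rows name 1 transcript of constant length. The members and lists were chosen with earlier results of these data known. All members are named, and of each list the 2 highest and 2 lowest called genes in each comparison with DMSO, with TDG, MAGEA3 and GTSF1 added after their values were seen. A gene of the S-adenosylmethionine list that this rule names is not reported here. The 3 genes most like each member are also named. Ratios within a library and list counts under each alternative were added after seeing the data.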

Additional observations from a re-analysis of the deposited data

How the results depend on the processing

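Each of the 27 member results (9 genes, 3 comparisons) was recomputed under 21 alternatives, 567 values in all: 492 kept direction and call, 32 lost the call, 17 gained it and 26 changed sign. The number of members called with FB23 was 4, and 7 with GC and length trends removed, the only setting that moved such a count by over 1.5 times. Leaving out each library gave 3 to 5 members called with FB23, 6 to 8 with FB23-2 and 7 to 8 between the compounds.

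The sign changes concern DNMT1, DNMT3A, TET2 and TET3. DNMT1 with FB23 (-0.0083) was 0.0071 with either TPM pseudocount, 0.02 with library totals (0.0159), 0.0225 with no filter, and -0.0177 to 0.0043 when each library was left out. DNMT1 with FB23-2 was 0.0016 with library totals, 0.03 with upper-quartile factors (0.0257), 0.1035 with log2(TPM + 0.1) and 0.1028 with log2(TPM + 1), and between the compounds it was 0.0289, 0.0964 and 0.0957 with the last 3. DNMT3A with FB23-2 was 0.0773 and 0.072 with TPM pseudocounts of 0.1 and 1, and between the compounds 0.1195 and 0.1111 with these, 0.0204 with library totals and 0.0625 with upper-quartile factors. TET2 with FB23-2 (0.0049) was -0.2876 with GC and length trends removed, -0.0211 with no filter, and -0.0344 to 0.0355 when each library was left out, and between the compounds -0.1264 with GC and length trends removed. TET3 was -0.4687 with FB23-2 and -0.1568 between the compounds with GC and length trends removed. The cause of these sign changes was not tested.

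Replicate numbers did not pair the libraries: deviations from the group means of same-numbered libraries correlated between -0.18 and 0.09, with 0 of 9 pairs above 0.1, and 5 of 9 libraries correlated best with their own number. With the replicate block 3, 8 and 7 members were called in FB23 and FB23-2 against DMSO and between the compounds, where 4, 8 and 7 were called without it, and the call lost was TET1 with FB23 (-0.21, edgeR adjusted p = 0.0515).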
